A study of Mus musculus with 19 samples.

Results

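Monocyte-like myeloid-derived suppressor cells (M-MDSC) from the spleens of newborn mice were compared with the same cells from adult mice, over all genes measured. After lysis of red blood cells, spleen cells were enriched with CD11b beads and live cells sorted as CD11b+ Ly6Chigh Ly6G-, per the labels' protocols. The newborn group held 5 libraries of mice 7 days old, and the adult group held 3 libraries of mice 6 to 8 weeks old. These 8 libraries were all the M-MDSC libraries among the 19 of the series. The other 11 came from PMN-MDSC, the neutrophil-like form taken as CD11b+ Ly6Cint Ly6G+ (6 adult, 5 newborn). For PMN-MDSC the labels' protocols describe both a sort and an isolation with Ly6G beads, and which made each library is not stated. Neither group carried a transgene, a deletion or a treatment in the labels, which do not name the strain, the sex or the number of mice behind a library. Age was thus the labelled difference. The labels place adult replicates 1 and 3 and newborn replicates 1, 2 and 3 in batch 1, and adult replicate 28 and newborn replicates 77 and 79 in batch 2. No label says that replicates came from separate mice, so p-values measure the spread among the libraries, part of which may be technical.

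Myeloid-derived suppressor cells are immature and activated myeloid cells that restrain T cells, best known from cancer and chronic inflammation. Around birth such cells are abundant for a short time, and the title of the study points to that window. Myeloid cells arise from progenitors that divide in the bone marrow and, in young mice, in the spleen. Granule proteins are made in order during this path: the primary granule proteases in promyelocytes and related progenitors, and the secondary granule proteins later, in maturing neutrophils. Monocytes lose the expression of cell division genes as they mature.

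Levels are given as CPM, the count scaled to the size of the library after TMM normalization. Values in single libraries are listed in the order adult replicates 1, 3 and 28, and newborn replicates 1, 2, 3, 77 and 79. A log2 difference is newborn minus adult, from edgeR's quasi-likelihood test with batch in the model, with its standard error (SE) after the ± sign. A gene was called, or is said to have risen or fallen with newborn age, at an adjusted p (Benjamini-Hochberg) under 0.05. Total counts were 1785402 to 2057613 in the 5 libraries of batch 1 and 16896783 to 23344379 in the 3 of batch 2. Adult replicate 28 and newborn replicate 77 nevertheless had the fewest genes with a count, 11549 and 11823, against 13169 to 15362 in the other M-MDSC libraries. Adult replicate 1 stood apart in its activation genes, whose values are given with them. The first principal component of the 8 libraries held 35.2% of the variance and separated the ages (adults -158.5 to -81.8, newborns 45.3 to 98.9), and the second held 22.7%, with adult replicate 28 at -137.4 and the other adults at 75.5 and 108.3. No M-MDSC libraries of a group agreed within sampling noise (chi-square per degree of freedom 6.38 to 116.5), and each was counted as a replicate. This value cannot show that libraries came from separate samples, since the alike PMN-MDSC pairs given next also exceed sampling noise. Newborn replicates 1 and 3 had the lowest value, 6.38, close to the highest of those pairs. The PMN-MDSC libraries entered the fit as 11 replicates, but the labels do not say that those of the 2 batches came from separate samples, and 5 pairs across batches were alike: adult replicates 1 with 32, 2 with 33 and 3 with 34, and newborn replicates 2 with 37 and 3 with 38. Chi-square per degree of freedom was 2.38 to 6.29 in these pairs, which were picked for their likeness, and 6.89 to 19.7 in the 10 remaining pairs across batches of a group. If a pair is 1 sample read again, the number of distinct PMN-MDSC samples is below 11 and the standard errors below may be too small, since all groups share the spread. Counts without the batch 1 PMN-MDSC libraries are therefore given beside the main ones.

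No sort marker was called for age. Itgam, which encodes CD11b, was at 691 ± 53.4 CPM in adults (SD, n = 3) and 765 ± 169 in newborns (SD, n = 5), a log2 difference of 0.15 ± 0.15 (SE; adjusted p = 0.484). Ly6c2, an Ly6C gene, was at 807, 304 and 425 CPM in the adult libraries and 579, 1065, 827, 446 and 560.4 in the newborn ones, with a log2 difference of 0.44 ± 0.27 (SE; adjusted p = 0.243). It was called higher, at 0.87, without adult replicate 1. Ly6g, the neutrophil marker excluded by the sort, was at 0, 0.828 and 0 CPM in adults and 0, 1.28, 1.85, 0 and 1.24 in newborns, against 213 ± 25.05 CPM in newborn PMN-MDSC (SD, n = 5). It was not called (adjusted p = 0.143), though it was called higher without adult replicate 3 (6.29) or without newborn replicate 77 (3.41). Monocyte markers summed to 7678 to 7869 CPM in adults and 9599 to 12635 in newborns, with all 10 markers detected in both groups. Of the 10, 1 was called higher (Fn1) and 3 lower, against 15.9% and 14.3% of all tested genes. Fn1 made up most of every newborn sum. The PMN-MDSC libraries summed to 755 to 1484 CPM in adults and 1033 to 1268 in newborns, below every M-MDSC library. In newborn replicates 2 and 3 the neutrophil markers given below summed to more than the monocyte ones.

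Markers of other cell types moved with age, and their part in the results was not tested. Over all tested genes, 15.9% were higher and 14.3% lower in newborn M-MDSC. In bulk libraries, fewer cells of a type and less RNA per cell cannot be told apart. All 12 neutrophil markers were tested, 9 were higher in newborns and 0 lower, and the list summed to 667 to 1159 CPM in adults and 3177 to 14551 in newborns. S100a8, S100a9, Camp, Ngp, Ltf and Lcn2 belong to this list and also to the granule and S100 results below. The list is thus not separate from those results. Newborn replicates 2 and 3 were the highest, at 14551 and 12376 CPM, while Ly6g stayed under 2 CPM in every library and Csf3r, the receptor for granulocyte colony-stimulating factor, was at 265, 215 and 297 CPM in adults and 275, 278, 234, 208 and 234 in newborns and was not called. B cell markers were lower in newborns for 13 of 14 tested, with sums of 1096 to 2709.8 CPM in adults and 183 to 303 in newborns. Every newborn sum of these B cell markers lay below every adult one. T cell markers fell for 13 of 15 (sums 192 to 528 against 10.8 to 56.3 CPM), plasma cell markers for 7 of 7 (622 to 1627 against 42.5 to 95.4) and NK cell markers for 5 of 7 (35.0 to 57.9 against 0 to 6.62). No marker of these lists was at 0 in every library of a group, other than Tnfrsf17 of plasma cells, at 0 in both. Dendritic cell markers fell for 4 of 12 and splenic macrophage markers for 8 of 14, but Adgre1, which encodes the macrophage antigen F4/80, was at 187, 185 and 221 CPM in adults and 199.5, 165, 174, 180.3 and 204 in newborns and was not called. Erythroid markers summed to 72.7 to 536 CPM in adults and 41.1 to 2901 in newborns, where the batch 1 libraries (1089 to 2901) lay above the batch 2 ones (41.1 and 122.9); 0 of 18 were called. Csf3r, Adgre1, Ccr3, Il5ra, Kdm5d and Xist are named as examples chosen after their values were seen.

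**Figure D1:**
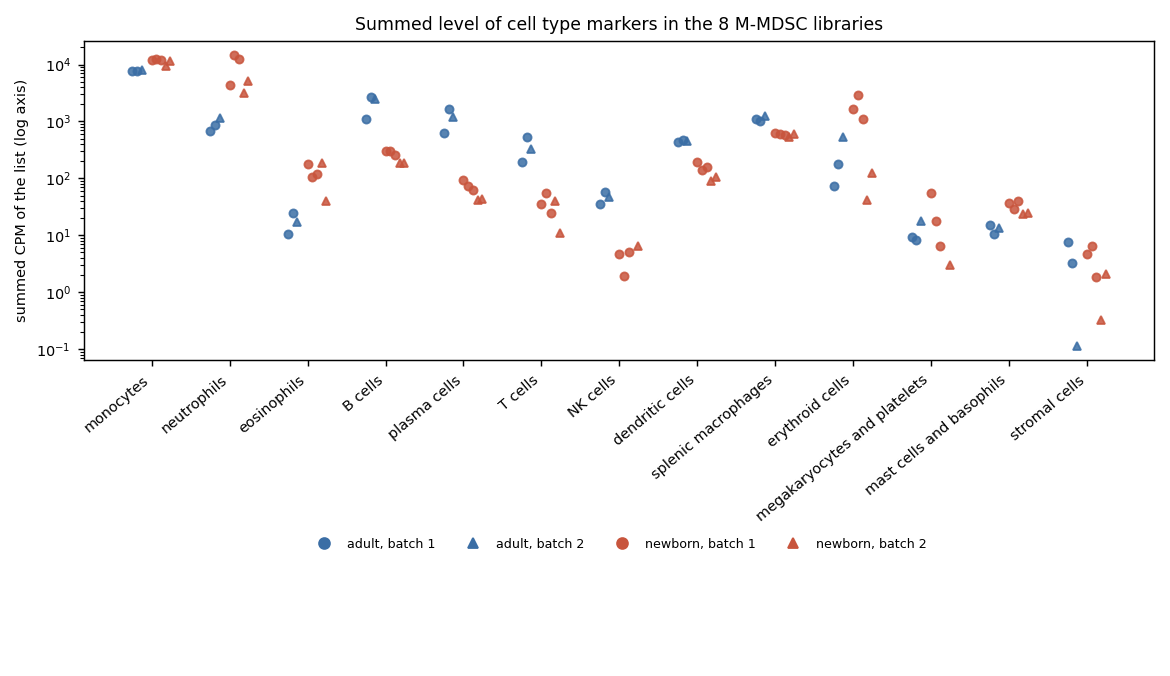
Summed CPM (log axis) of each marker list in the 3 adult (blue) and 5 newborn (red) M-MDSC libraries; circles are batch 1 and triangles batch 2, and newborn replicate 77, which summed to 0 for NK cells and for megakaryocytes and platelets, is not drawn there. Adult libraries held 667 to 1159 CPM of neutrophil markers against 3177 to 14551 in newborn ones, and 1096 to 2710 CPM of B cell markers against 183 to 303.

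Age also went with the mix of sexes. Kdm5d, on the Y chromosome, was at 0 counts in adults and at 14.8, 1.28, 1.85, 10.2 and 17.7 CPM in the newborn ones, and Xist, which coats and silences an X chromosome, was at 962, 1056 and 553 CPM in adults and 63.0, 159.8, 337, 523 and 245 in newborns. Of 5 sex-linked transcripts, 3 were higher and 1 lower in newborns. Effects of age and of sex cannot be told apart in these groups.

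In all, 2053 of the 12943 genes tested (15.9%) were higher in newborn M-MDSC and 1856 (14.3%) were lower, by edgeR's quasi-likelihood test. Among these 3909 genes, 1302 were at least 2-fold higher and 1410 at least 2-fold lower. Within each batch alone, 3700 of the 3909 (94.7%) had the same sign. These genes were called from the same libraries, which partly fixes that share, and batch 2 holds 1 adult library. The median log2 difference over all tested genes was 0.01. Every newborn library lay above every adult library for 1655 genes (12.8%) and below for 1340 (10.4%). Fitted on the 8 M-MDSC libraries alone, which gives up the spread shared with PMN-MDSC, the test called 665 higher and 602 lower, and 1266 of these 1267 were among the calls above. Without the batch 1 PMN-MDSC libraries, 1440 were higher and 1386 lower. Of the 178 genes called for age among those examined one by one, 172 were still called then, and Cd274, Cd34, Fcgr1, Ncoa4, Pycard and Tlr5 were not. List counts that moved by more than 1.5 times without those libraries were those of higher genes for annexins (3), the endoplasmic reticulum (2), the oxidase (2) and integrins (1), those of lower genes for C-type lectins (5), Toll-like receptors (3), iron (2) and NK cell markers (3), and the 1 higher gene of cytokine receptors, of Fc receptors and of the inflammasome list, which became 0. The plot of called members by list shows where these genes fell in 41 gene lists.

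**Figure D2:**
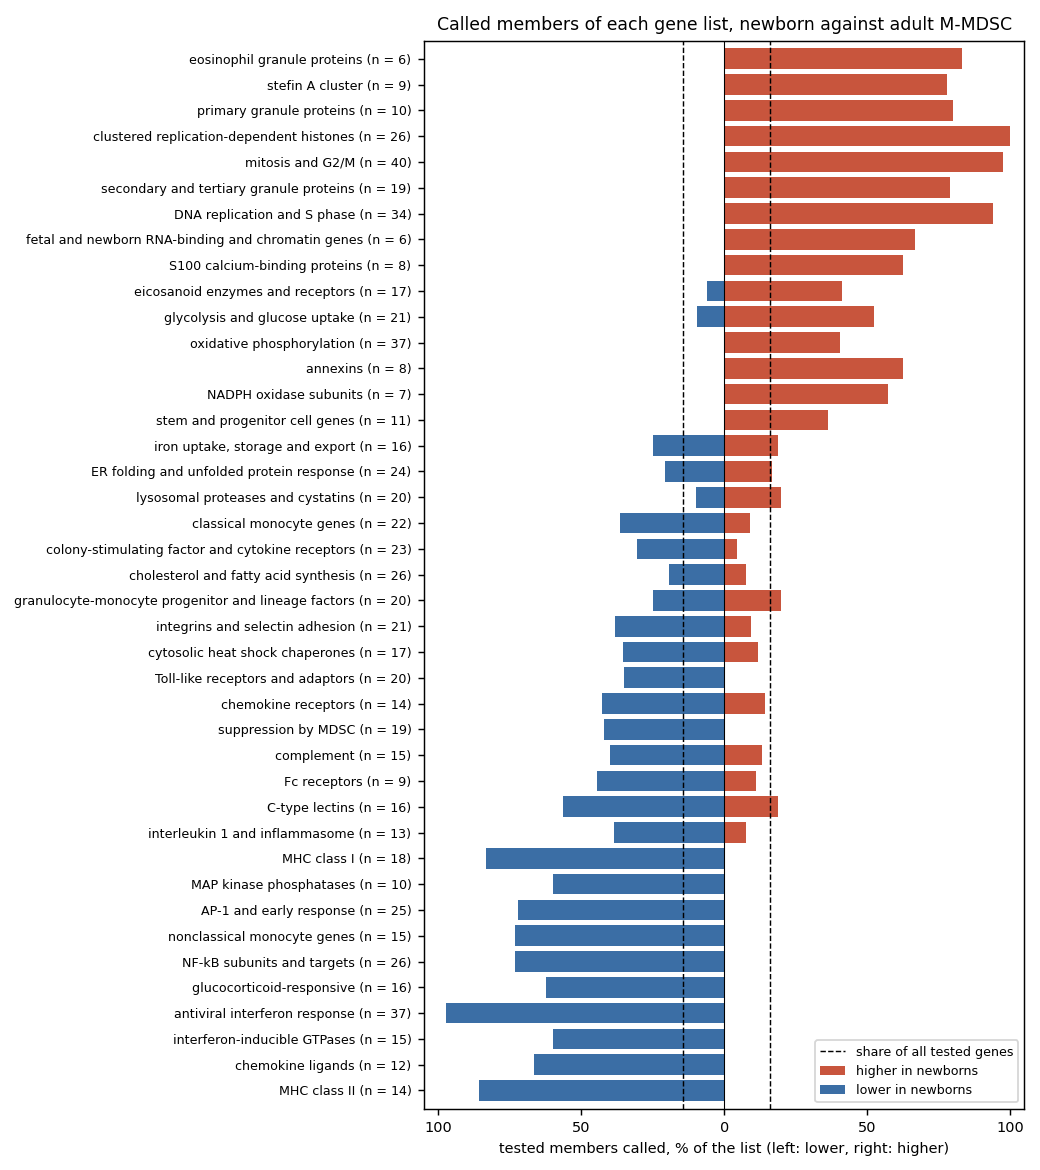
For each of 41 gene lists (n, members tested), the share of tested members called lower (blue, left) or higher (red, right) in newborn than in adult M-MDSC, with lists ordered by their median log2 difference; dashed lines mark the shares over all tested genes, 15.9% higher and 14.3% lower. Granule, stefin, histone and cell division lists fill the upper part to the right, and MHC, interferon, NF-kB and chemokine lists the lower part to the left.

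Newborn M-MDSC carried far more RNA of neutrophil granule proteins. Of 10 primary granule genes tested, 8 were higher in newborns and 0 lower (15.9% of all tested genes were higher), with a median log2 difference of 4.05. Mpo (chromosome 11, 87793581 to 87804413, GRCm38), which encodes myeloperoxidase, was at 38.3, 99.3 and 44.7 CPM in adults and 1196, 3106, 2255, 2035 and 1282 CPM in newborns. The lowest newborn library lay more than 10 times above the highest adult one. The log2 difference was 5.06 ± 0.50 (SE; adjusted p = 6.403e-07), a 33.4-fold difference, with 4.98 in batch 1 and 5.21 in batch 2. Elane, which encodes neutrophil elastase, was at 23.5, 45.5 and 60.4 CPM in adults and 525.8, 1492, 908, 741 and 593 in newborns. Its log2 difference was 4.28 ± 0.65 (SE; adjusted p = 7.42e-05), and the groups did not overlap. Prtn3, the sister protease proteinase 3, was at 18.6, 32.7 and 33.9 CPM in adults and 272, 733, 515, 301 and 261 in newborns, and rose by 3.83 on the log2 scale (adjusted p = 3.30e-06). Serpinb1a, an inhibitor of these proteases, rose by 2.78 (adjusted p = 3.05e-05). Cd63, a granule membrane tetraspanin, had 0 counts in all 3 adult libraries and 25.9, 91.4, 94.6, 23.2 and 30.5 CPM in the newborn ones, at least 229.7-fold higher with the newborn counts pooled over the 5 libraries and set against the level that 3 counts over the adult group allow (0.138 CPM). Newborn PMN-MDSC averaged 49.1 ± 7.30 CPM of Mpo (SD, n = 5).

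Secondary and tertiary granule genes followed: 15 of 19 rose and 0 fell (15.9% and 14.3% of all tested genes), with a median of 3.11. Ltf, which encodes lactoferrin, was at 77.1, 161 and 148 CPM in adults and 629.5, 2235, 2128, 606 and 1169 in newborns. Newborn replicates 2 and 3 were the highest, and the 3 other newborn libraries still lay above every adult one. The log2 difference of Ltf was 3.37 ± 0.42 (SE; adjusted p = 9.98e-06). Camp, the precursor of the antimicrobial peptide CRAMP, was at 60.7, 80.7 and 199 CPM in adults and 548, 2643, 1705, 522 and 814 in newborns, with a log2 difference of 3.44 ± 0.54 (SE; adjusted p = 1.10e-04) that was 4.52 in batch 1 and 1.75 in batch 2. Ngp, a cystatin-like granule protein, was at 87.5, 104 and 121 CPM in adults and 478, 2233, 1576, 342 and 491 in newborns, a log2 difference of 3.20 ± 0.49 (SE; adjusted p = 8.30e-05). Lcn2, the iron-siderophore binding lipocalin, was at 35.0, 81.5 and 96.5 CPM in adults and 536, 1726, 1239.6, 533 and 799.9 in newborns and rose by 3.73 (adjusted p = 1.35e-06). Olfm4 and Itgb2l, products of maturing neutrophils, rose by 5.47 and 4.34, and Fcnb, a ficolin of the lectin pathway, rose by 4.38. These levels stood far below those of newborn PMN-MDSC, where Ltf averaged 29209.5 ± 2426 CPM, Camp 8176 ± 381 and Ngp 14250.2 ± 1686 (SD, n = 5).

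The S100 alarmins and stefins rose as well. S100a8, a subunit of calprotectin, was at 45.9, 114 and 115 CPM in adults and 1103, 2859, 3035, 586 and 936 in newborns, and S100a9, the partner subunit, at 54.1, 72.0 and 119.6 and 705, 2456, 2271, 276 and 436. Newborn replicates 2 and 3 were again the highest and the batch 2 libraries the lowest of the newborns, without overlap with adults. The log2 differences were 4.16 ± 0.50 (SE; adjusted p = 5.32e-06) for S100a8 and 3.78 ± 0.60 (SE; adjusted p = 1.21e-04) for S100a9, the latter 4.84 in batch 1 and 1.57 in batch 2. S100a10 and S100a11, partners of annexins, rose by 0.86 and 1.61. In the S100 list 5 of 8 rose and 0 fell. Each list count here stands beside 15.9% of all tested genes higher and 14.3% lower. Of 9 stefin A genes tested, a mouse cluster of cystatin-type protease inhibitors, 7 rose, with a median of 7.27. Stfa1 was at 0, 0 and 0.402 CPM in adults and 209, 529, 318, 119 and 183 in newborns (log2 difference 9.74, 14.73 without adult replicate 28), BC100530 at 1.09, 0 and 0.574 CPM in adults and 216, 388, 279.8, 99.9 and 175 in newborns, and Stfa3 at 2.19, 0 and 0.918 CPM in adults and 107, 247, 197, 41.7 and 179.7 in newborns. Stefin A genes are near-identical copies whose estimated counts can be split among them, so single members are uncertain. Eosinophil granule genes were higher for 5 of 6. Prg2, major basic protein, was at 0.547, 1.24 and 0.0574 CPM in adults and 119, 69.7, 62.3, 130.4 and 19.5 in newborns, and Epx, eosinophil peroxidase, had 0 counts in adults and 39.8, 19.2, 26.3, 33.1 and 4.49 CPM in newborns, at least 138-fold higher. Ear6 and Prg3 (the latter not called without adult replicate 28, at 8.01) also had 0 counts in adults, and newborn replicate 79 was the lowest newborn library for all 4. The eosinophil receptor genes Ccr3 and Il5ra did not follow: Ccr3 was at 1.64, 13.7 and 10.3 CPM in adults and 1.85, 0, 0.462, 0 and 0.482 in newborns, a log2 difference of -4.56 (adjusted p = 1.81e-04), and Il5ra was not called (adjusted p = 0.298).

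**Figure D3:**
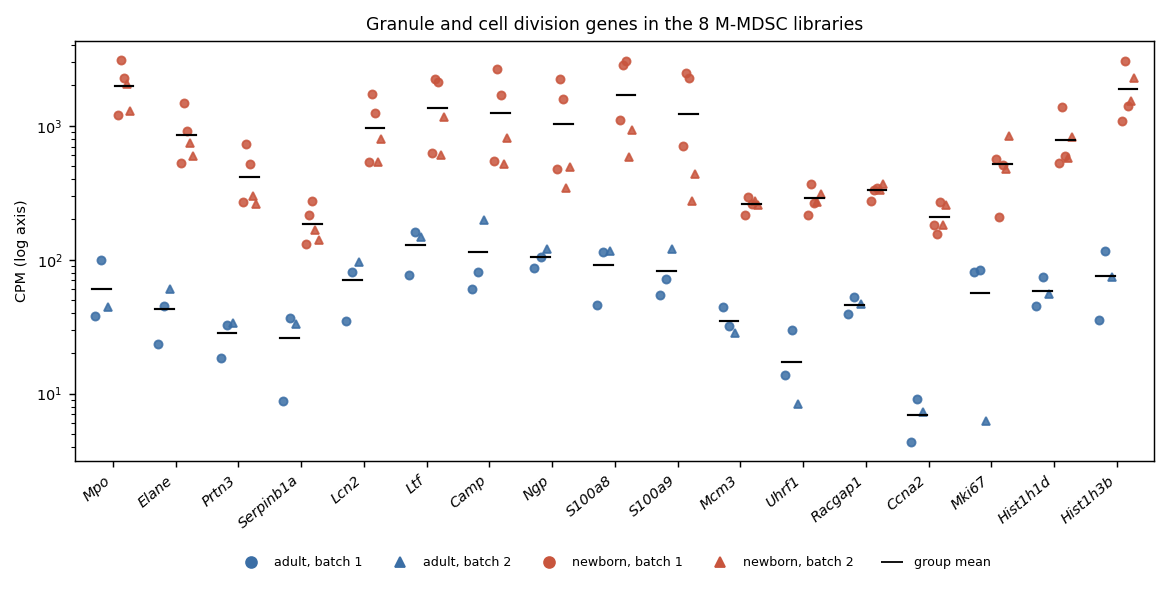
CPM (log axis) of granule, S100, cell division and histone genes in each adult (blue) and newborn (red) M-MDSC library; circles are batch 1, triangles batch 2 and black bars group means (n = 3 and 5). The groups do not overlap for any of the 17 genes drawn, from Mpo (38.3 to 99.3 CPM in adults, 1196 to 3106 in newborns) to Hist1h3b (35.5 to 116 and 1094 to 3024).

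Genes of cell division were higher in newborn M-MDSC in all 3 lists. Of 34 genes of DNA replication and S phase, 32 were higher in newborns and 0 lower (median 2.92), of 40 genes of mitosis and G2/M, 39 were higher and 0 lower (median 3.59), and of 26 clustered histone genes, all 26 were higher (median 3.71). Every newborn library lay above every adult library for 32, 38 and 23 of them, against 12.8% of all tested genes. Genes called higher were 15.9% of all tested genes. Mcm3, a subunit of the replicative helicase, was at 44.3, 32.3 and 28.4 CPM in adults and 214, 295, 261, 272 and 257 in newborns. The lowest newborn library, replicate 1, lay far above the highest adult one, replicate 1, and the log2 difference was 2.92 ± 0.19 (SE; adjusted p = 8.56e-09). Mcm7, another helicase subunit, rose by 3.03 and Uhrf1, which keeps DNA methylation through replication, by 4.14. E2f8, an atypical E2F factor induced at S phase, was at 4.92, 8.28 and 10.7 CPM in adults and 111, 153, 174, 182 and 125 in newborns, a log2 difference of 4.14 ± 0.25 (SE; adjusted p = 3.68e-09).

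Genes of mitosis had the same pattern. Ccna2, cyclin A2, was at 4.37, 9.10 and 7.35 CPM in adults and 182, 155, 269.6, 182 and 256 in newborns, a 29.5-fold difference (log2 difference 4.88 ± 0.33, adjusted p = 1.21e-08). Racgap1 (chromosome 15, 99620496 to 99651656, GRCm38), needed for cytokinesis, was at 39.4, 52.5 and 46.7 CPM in adults and 273, 329, 343, 334 and 366 in newborns, with a log2 difference of 2.83 ± 0.17 (SE; adjusted p = 3.79e-09). Adults thus kept a measurable level of Racgap1, while Cdkn3 and Mastl, regulators of mitotic kinases, had 0 counts in all 3 adult libraries and averaged 22.5 ± 11.6 and 10.6 ± 4.40 CPM in newborns (SD, n = 5), at least 103-fold and 100.4-fold higher. Cenpu, a centromere protein, and Tuba8, an alpha tubulin, also had 0 counts in adults, and were at least 87.0-fold and 72.6-fold higher, while Parpbp, a regulator of recombination, was at 0, 0.414 and 0 CPM in adults and 22.2, 9.59, 36.9, 32.9 and 32.4 in newborns. Aurka, a spindle kinase, and Tacc3, its spindle partner, rose by 3.47 and 3.21. Mki67, the Ki-67 antigen used to mark cycling cells, was at 80.9, 83.6 and 6.26 CPM in adults and 568.4, 209.7, 509, 479 and 839 in newborns. Adult replicate 28 was the lowest library and newborn replicate 2 the lowest newborn one, and the log2 difference was 3.25 ± 0.60 (SE; adjusted p = 4.81e-04), 2.38 in batch 1 and 6.72 in batch 2.

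Replication-dependent histone genes make histones for new chromatin in S phase, and their transcripts lack a poly(A) tail. Hist1h3b was at 35.5, 116 and 74.5 CPM in adults and 1094, 3024, 1416, 1540.3 and 2255 in newborns, a log2 difference of 4.63 ± 0.39 (SE; adjusted p = 1.12e-07). Hist1h1d, a linker histone, rose by 3.74 (adjusted p = 6.403e-07) and Hist2h3c2 by 6.09 (adjusted p = 7.38e-07). Hist1h2bg was at 24.1, 73.2 and 63.7 CPM in adults and 471, 1441, 613, 666 and 701 in newborns, a log2 difference of 3.84 ± 0.39 (SE; adjusted p = 8.12e-07), with newborn replicate 2 the highest as for Hist1h3b. Hist1h2ah had 0 counts in adults and 47.2, 208, 82.6, 19.7 and 64.4 CPM in newborns, at least 364-fold higher. Histone genes have near-identical copies, so the split among single genes is uncertain while the direction was shared by all 26.

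Promoters of the mitotic genes are shown because these genes moved together. The CCAAT box (CCAAT, either strand), the binding letters of the factor NF-Y and a known feature of G2/M promoters, stood in the 250 bases before the RefSeq start of 26 of 34 G2/M genes with an entry (76.5%), against 37.5% of the 27025 genes with an entry. The cell cycle homology region (TTTGAA, either strand) stood in 13 of the 34 (38.2%), against 18.3% of all. Capitals mark CCAAT boxes in these 250 bases of Aurka (chr2:172370571-172370820, minus strand) and Racgap1 (chr15:99651657-99651906, minus strand), RefSeq on GRCm38.p6, written 5′ to 3′ toward the start.
Aurka: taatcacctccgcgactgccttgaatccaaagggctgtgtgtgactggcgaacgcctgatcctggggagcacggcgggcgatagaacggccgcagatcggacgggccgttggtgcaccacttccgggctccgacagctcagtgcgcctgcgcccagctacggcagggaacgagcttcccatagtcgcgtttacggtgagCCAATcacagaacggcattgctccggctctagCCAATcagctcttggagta
Racgap1: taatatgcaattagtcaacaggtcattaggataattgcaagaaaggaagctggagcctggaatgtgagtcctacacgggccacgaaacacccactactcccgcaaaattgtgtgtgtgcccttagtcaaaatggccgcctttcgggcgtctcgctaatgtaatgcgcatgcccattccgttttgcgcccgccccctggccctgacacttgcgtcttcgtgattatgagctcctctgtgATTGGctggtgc
The CCAAT letters end 47 and 15 bases before the Aurka start and 8 bases before the Racgap1 start. A match is a description of letters, not a measured binding site.

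Part of the tested genes of fetal blood formation and of progenitors were higher in newborns, and 0 were lower. Igf2bp3, an RNA-binding protein of fetal cells, was at 4.37, 0.828 and 5.34 CPM in adults and 73.6, 55.0, 87.3, 105.4 and 117 in newborns, a 23.02-fold difference (log2 difference 4.53 ± 0.44, adjusted p = 5.03e-07) with no overlap. Lin28a, an RNA-binding protein that blocks let-7 microRNAs, was at 0.547, 3.31 and 0.0574 CPM in adults and 12.5, 33.9, 34.2, 18.04 and 33.2 in newborns (log2 difference 5.26 ± 0.75, adjusted p = 3.51e-05). Its paralog Lin28b, the form best known from fetal blood progenitors, had 0 counts in all 8 libraries, which allows up to 0.138 CPM over the adult and 0.0575 over the newborn group. Arid3a, a chromatin factor of fetal B lymphopoiesis and a let-7 target, was at 104.97, 115 and 191 CPM in adults and 474, 511, 545, 503 and 583 in newborns (log2 difference 1.93 ± 0.20, adjusted p = 9.18e-07), and Hmga1, an architectural chromatin protein, rose by 1.91 (adjusted p = 1.26e-05). Of the 12 genes in this fetal list 6 had enough counts to be tested, of which 4 rose and 0 fell. Lin28b, Igf2bp1, Igf2bp2, Igf2, H19 and Dlk1 had too few counts in either group. Over all tested genes, 15.9% were higher and 14.3% lower.

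Kit, the stem cell factor receptor, was at 3.83, 4.14 and 2.30 CPM in adults and 30.1, 56.9, 57.7, 33.0 and 32.3 in newborns (log2 difference 3.70 ± 0.32, adjusted p = 1.68e-07). Tal1, a factor of stem cells and the erythroid line, was at 0.547, 0.414 and 0 CPM in adults and 4.17, 5.11, 10.6, 8.09 and 2.61 in newborns, with 2 counts in adults, a ratio of 57.7 (95% interval 15.8 to 479, counting error only). Cd34, a progenitor surface protein, had 2 counts in adults too and was at 4.63, 6.39, 8.77, 5.66 and 4.86 CPM in newborns (adjusted p = 0.0216), a call lost without adult replicate 3 or 28 or newborn replicate 3 (log2 difference 4.36, 3.59 and 4.61), while without adult replicate 1 it was 9.25. Of 16 progenitor genes 11 were tested, of which 4 rose and 0 fell. Hoxa9, Hoxa7, Mecom, Egfl7 and Mycn had too few counts to be tested. Myb, the factor of dividing myeloid progenitors, rose by 2.00 (adjusted p = 1.29e-04), and Cebpe, the factor of secondary granule genes, was at 4.37, 13.7 and 33.2 CPM in adults and 85.6, 207, 144, 89.5 and 109.8 in newborns (log2 difference 2.74 ± 0.46, adjusted p = 2.01e-04; 3.96 and 1.58 in batches 1 and 2). Myc fell by 1.64 on the log2 scale (adjusted p = 1.45e-04), being at 36.6, 40.6 and 41.8 CPM in adults and 12.03, 16.0, 21.2, 5.89 and 11.96 in newborns. Maf, a macrophage factor, fell by 1.96 (adjusted p = 3.09e-04). In the list of lineage factors 4 of 20 rose (2 without adult replicate 3) and 5 fell, not far from the 15.9% and 14.3% of all tested genes. Ncam1, the adhesion molecule CD56, was among the genes with the smallest adjusted p: it was at 4.92, 4.97 and 2.53 CPM in adults and 73.1, 71.6, 93.3, 61.6 and 70.6 in newborns, a 20.0-fold difference (log2 difference 4.32 ± 0.25, adjusted p = 3.43e-09).

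Classical monocyte genes moved in both directions, with more falls than rises in the main fit. Ccr2, the chemokine receptor by which classical monocytes leave the marrow, was at 698, 654 and 299 CPM in adults and 549, 227, 523, 810.5 and 938 in newborns, and the groups overlapped (log2 difference 0.06 ± 0.40, adjusted p = 0.933). Its sign differed between batches, -0.64 in batch 1 and 1.55 in batch 2. Csf1r, the receptor for the monocyte growth factor, was at 2050.2, 1934 and 2863 CPM in adults and 1034, 1233, 981, 591 and 919 in newborns. Every newborn library lay below every adult one, and the log2 difference was -1.27 ± 0.24 (SE; adjusted p = 6.53e-04). Fn1, fibronectin, was at 1763, 3181 and 2635 CPM in adults and 7665, 8445, 7376, 5802 and 6906 in newborns, and rose by 1.52 (adjusted p = 6.24e-04). Ms4a6b and Ms4a4c, membrane proteins of the Ms4a family, fell by 2.05 and 1.93. Of 22 classical monocyte genes, 2 rose and 8 fell, against 15.9% and 14.3% of all tested genes. Without adult replicate 1, 5 rose and 6 fell. The list summed to 20549 to 26432 CPM in adults and 23208 to 30849 in newborns.

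Nonclassical monocytes, which patrol vessels and mature from the classical ones, express Cx3cr1 and Ace. In their list 11 of 15 fell and 0 rose, with a median of -1.66 (14.3% of all tested genes were lower). Ace, which encodes angiotensin-converting enzyme, was at 275, 548 and 1298 CPM in adults and 86.6, 91.4, 61.9, 45.9 and 61.6 in newborns. Adult replicate 28 was the highest and adult replicate 1 the lowest of the adults, and none overlapped the newborns (log2 difference -3.35 ± 0.37, adjusted p = 1.93e-06). Cx3cr1, the fractalkine receptor, was at 258, 360.0 and 393 CPM in adults and 154, 111, 177, 87.8 and 161 in newborns (log2 difference -1.29 ± 0.22, adjusted p = 2.35e-04). Cd83, a surface protein of activated antigen-presenting cells, was at 319, 69.5 and 77.1 CPM in adults and 25.5, 11.5, 11.5, 5.61 and 4.45 in newborns (log2 difference -3.81 ± 0.50, adjusted p = 1.45e-05), and Pou2f2, the factor Oct-2, fell by 1.89 (adjusted p = 1.96e-05).

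Antigen presentation genes were much lower in newborns. Of 14 MHC class II genes, 12 were lower and 0 higher, with a median of -3.91. For 18 MHC class I genes these counts were 15 and 0, with a median of -1.57. Both stand against 14.3% lower and 15.9% higher among all tested genes. H2-Aa (chromosome 17, 34282744 to 34287823, GRCm38), a class II alpha chain, was at 403, 544 and 689 CPM in adults and 70.8, 32.0, 16.6, 8.46 and 18.9 in newborns. Newborn replicate 1 was the highest newborn library and newborn replicate 77 the lowest, all far below adults. The log2 difference was -4.30 ± 0.45 (SE; adjusted p = 1.25e-06), a 19.7-fold difference, -3.57 in batch 1 and -5.65 in batch 2. H2-Eb1, a class II beta chain, was at 430.3, 667 and 677 CPM in adults and 86.1, 37.7, 21.7, 11.8 and 19.7 in newborns (log2 difference -4.18 ± 0.41, adjusted p = 6.403e-07), and Cd74, the invariant chain that escorts class II molecules, at 1483, 2277 and 2097 CPM in adults and 217, 127, 79.9, 30.0 and 77.4 in newborns (log2 difference -4.26 ± 0.38, adjusted p = 1.84e-07). Ciita, the coactivator that switches class II genes on, was at 149.8, 266 and 189 CPM in adults and 15.7, 4.48, 11.1, 5.61 and 7.66 in newborns, a 23.3-fold difference (log2 difference -4.54 ± 0.34, adjusted p = 3.27e-08). B cells and dendritic cells express class II genes too, and their lists of markers had a median log2 difference of -3.93 and -2.14. Their part in the class II difference was not tested.

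MHC class I is expressed by all nucleated cells. H2-K1, a classical class I heavy chain, was at 1394, 1250.4 and 2119.9 CPM in adults and 256, 266, 251, 223 and 261 in newborns. The newborn libraries lay within a narrow range and none reached the lowest adult (log2 difference -2.66 ± 0.20, adjusted p = 3.42e-08). Nlrc5, the class I coactivator, was at 359, 243 and 207 CPM in adults and 28.7, 22.4, 29.5, 24.96 and 40.1 in newborns (log2 difference -3.21 ± 0.20, adjusted p = 6.38e-09). H2-Q6 and H2-Q7, nonclassical class I genes, were lower as well, H2-Q6 at 219.8, 179.6 and 112 CPM in adults and 6.48, 6.39, 6.00, 2.29 and 5.22 in newborns (log2 difference -5.07 ± 0.29, adjusted p = 3.43e-09) and H2-Q7 at 1196, 496 and 311 and 39.8, 13.4, 27.2, 32.1 and 28.0 CPM (log2 difference -4.43 ± 0.36, adjusted p = 6.52e-08). They are near-identical copies that share reads, so their single values are uncertain. Adult replicate 1 was the highest library for Nlrc5, H2-Q6 and H2-Q7, but not for H2-K1.

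Class II promoters are shown because genes of this list fell together with their coactivator. The Y box (TGATTGG, either strand), an NF-Y element of the conserved module through which Ciita acts, stood in the 250 bases before the start of 7 of 10 class II genes with an entry (70.0%) and 8 of 15 class I genes (53.3%), against 8.38% of all 27025 genes. Each Y box holds a CCAAT box on its other strand. Capitals mark the Y box in H2-Aa (chr17:34287824-34288073, minus strand) and H2-Eb1 (chr17:34305617-34305866, plus strand), RefSeq on GRCm38.p6, 5′ to 3′ toward the start.
H2-Aa: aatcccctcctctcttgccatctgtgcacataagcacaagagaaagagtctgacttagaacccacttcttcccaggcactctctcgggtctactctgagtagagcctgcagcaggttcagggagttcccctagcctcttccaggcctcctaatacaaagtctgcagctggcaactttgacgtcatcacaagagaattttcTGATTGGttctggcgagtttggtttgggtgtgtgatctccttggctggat
H2-Eb1: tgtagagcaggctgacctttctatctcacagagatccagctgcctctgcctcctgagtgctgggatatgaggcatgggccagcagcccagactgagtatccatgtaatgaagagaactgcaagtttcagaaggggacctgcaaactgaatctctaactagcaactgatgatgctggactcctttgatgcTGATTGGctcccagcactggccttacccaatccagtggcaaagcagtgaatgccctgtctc
It ends 44 bases before the start of H2-Aa and 55 before that of H2-Eb1.

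**Figure D4:**
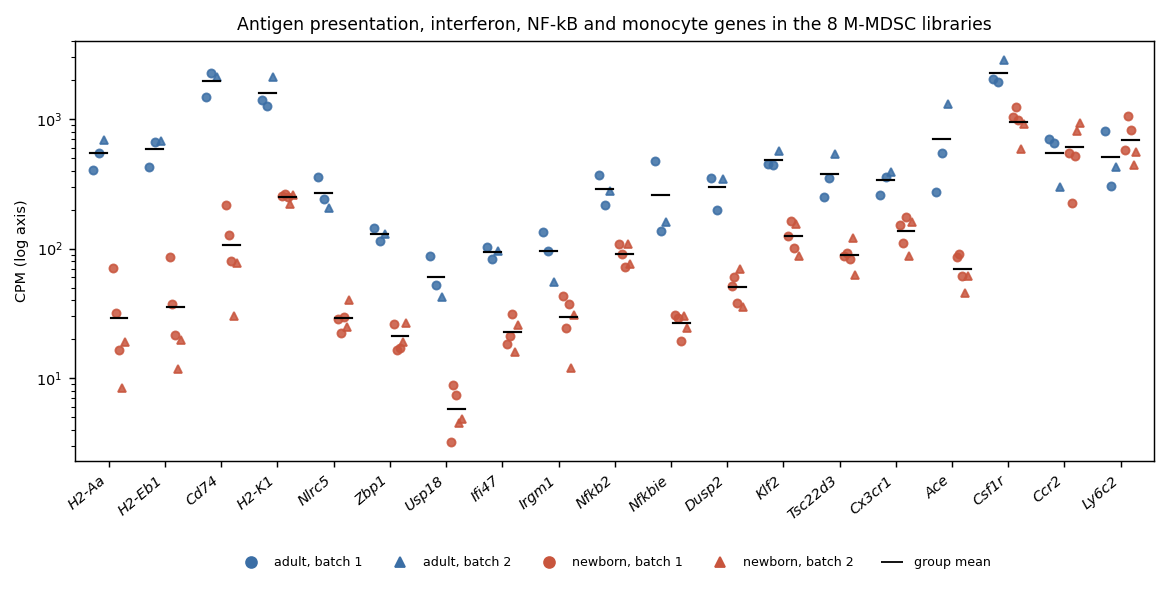
CPM (log axis) of antigen presentation, interferon, NF-kB, early response and monocyte genes in each adult (blue) and newborn (red) M-MDSC library; circles are batch 1, triangles batch 2 and black bars group means (n = 3 and 5). The groups separate for every gene drawn other than Ccr2 and Ly6c2, with H2-Aa at 403 to 689 CPM in adults and 8.46 to 70.8 in newborns.

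Interferon-stimulated genes were lower in newborns almost throughout. These genes are switched on when interferons bind their receptors, and many of their products block viruses. Of 37 antiviral genes, 36 fell and 0 rose (14.3% and 15.9% of all tested genes), with a median of -2.61. Every newborn library lay below every adult one for 31 (10.4% of all tested genes). Zbp1, a sensor of Z-form nucleic acids, was at 144, 115 and 129 CPM in adults and 26.4, 16.6, 17.1, 19.2 and 26.5 in newborns (log2 difference -2.61 ± 0.27, adjusted p = 9.18e-07). Both groups were tight and did not overlap. Usp18, the protease that limits interferon receptor signalling, was at 88.6, 52.1 and 42.2 CPM in adults and 3.24, 8.95, 7.39, 4.53 and 4.82 in newborns (log2 difference -3.39 ± 0.40, adjusted p = 4.13e-06). Oas2, a synthase of the 2-5A messenger that activates RNase L, and Oasl2, of the same family, fell by 3.39 (adjusted p = 2.24e-06) and 4.06 (adjusted p = 1.20e-06). Both were highest in adult replicate 1, at 265 and 332 CPM, and their family members are similar in sequence. In batch 2 alone, with 1 adult library, 19 of the antiviral genes were called lower.

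Interferon-inducible GTPases, which attack the vacuoles of intracellular microbes, fell for 9 of 15 and rose for 0, with a median of -2.67 (4 fell in batch 2 alone). The shares of all tested genes were 14.3% lower and 15.9% higher. Ifi47 was at 103, 82.8 and 96.3 CPM in adults and 18.5, 21.1, 31.4, 15.9 and 26.0 in newborns (log2 difference -2.06 ± 0.24, adjusted p = 3.22e-06). Tgtp2 was at 41.5, 29.4 and 32.2 CPM in adults and 1.85, 1.28, 1.38, 0 and 0.762 in newborns (log2 difference -5.46 ± 0.73, adjusted p = 1.91e-05), with the near-identical copy Tgtp1 sharing its reads. Gbp9, a guanylate-binding protein, was at 119, 53.4 and 64.3 CPM in adults and 12.5, 4.48, 8.31, 0.140 and 11.4 in newborns (log2 difference -3.45 ± 0.62, adjusted p = 3.70e-04). Irgm1, a regulator of the other GTPases, was at 136, 95.6 and 55.7 CPM in adults and 43.5, 24.3, 37.4, 11.9 and 30.9 in newborns (log2 difference -1.67 ± 0.34, adjusted p = 0.00113), and its lowest adult library, replicate 28, lay close above the highest newborn one. The core of the interferon-stimulated response element (GAAA, any 2 bases and GAAA again, either strand) stood in the 250 bases before the start of 8 of 9 GTPase genes with an entry (88.9%) and 13 of 26 antiviral genes (50.0%), against 3.46% of all genes. Where the letters GAA are shared, it can overlap the cell cycle homology region given above. Capitals mark it in Tgtp2 (chr11:49064213-49064462, minus strand) and Irgm1 (chr11:48871421-48871670, minus strand), RefSeq on GRCm38.p6; in Irgm1 a pair of overlapping matches makes 1 run.
Tgtp2: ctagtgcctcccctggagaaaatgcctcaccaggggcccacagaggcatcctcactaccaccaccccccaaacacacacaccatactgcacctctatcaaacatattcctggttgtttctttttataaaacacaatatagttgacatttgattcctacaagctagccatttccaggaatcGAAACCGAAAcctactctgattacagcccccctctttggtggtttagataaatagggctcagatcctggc
Irgm1: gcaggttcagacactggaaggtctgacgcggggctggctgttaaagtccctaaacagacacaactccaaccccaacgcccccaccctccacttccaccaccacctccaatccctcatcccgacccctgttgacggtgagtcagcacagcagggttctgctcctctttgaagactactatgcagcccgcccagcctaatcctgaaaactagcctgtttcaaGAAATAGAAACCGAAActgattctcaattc
The run ends 61 bases before the start of Tgtp2 and 15 before that of Irgm1.

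Signalling and stress genes were lower in newborns too, and here adult replicate 1 weighed heavily. NF-kB subunits and targets fell for 19 of 26 and rose for 0 (median -1.95), against 14.3% and 15.9% of all tested genes. Without adult replicate 1, 13 fell, and 11 fell in the fit on the M-MDSC libraries alone. Nfkb2, a precursor subunit of the noncanonical path, was at 373, 216 and 279.9 CPM in adults and 108, 91.4, 72.0, 109 and 76.0 in newborns (log2 difference -1.66 ± 0.18, adjusted p = 1.68e-06). Nfkbie, an inhibitor of NF-kB that is itself a target, was at 479, 137 and 160.2 CPM in adults and 31.0, 29.4, 19.4, 30.3 and 24.5 in newborns (log2 difference -3.22 ± 0.37, adjusted p = 3.86e-06). Adult replicate 1 was the highest library for both, and every adult lay above every newborn. Traf1, an adaptor of tumor necrosis factor receptors, and Cd40, a costimulatory receptor, fell by 4.16 and 1.75. Icam1, an adhesion molecule induced by NF-kB, was at 323, 185 and 162 CPM in adults and 51.4, 67.1, 46.2, 53.3 and 50.8 in newborns (log2 difference -2.04 ± 0.25, adjusted p = 6.01e-06).

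Some inflammatory genes rested on adult replicate 1. The list counts here stand beside 15.9% of all tested genes higher and 14.3% lower. Irg1, the enzyme of itaconate, was at 272, 3.72 and 0.344 CPM in adults and 0.926, 1.28, 0, 0.187 and 0.241 in newborns. Its log2 difference of -7.66 (adjusted p = 0.00238) was -1.74 without adult replicate 1 and no longer called. Cxcl2, a neutrophil attractant, was at 335, 53.8 and 14.1 CPM in adults and 13.4, 3.20, 2.77, 6.50 and 2.53 in newborns, with a log2 difference of -4.29 (adjusted p = 4.66e-04) that was -2.52 and still called without that library. Il1b, interleukin 1 beta, was at 225, 52.1 and 36.6 CPM in adults and 32.4, 17.3, 11.5, 21.5 and 8.67 in newborns, with -2.41 (adjusted p = 7.05e-04) and, without adult replicate 1, -1.34, also called. Chemokine ligands fell for 8 of 12 (5 without adult replicate 1) and rose for 0, and Ccl9 was at 477, 261 and 427 CPM in adults and 122, 150.3, 173, 94.7 and 129 in newborns (log2 difference -1.54 ± 0.24, adjusted p = 7.76e-05), with all adults above all newborns. Cxcl10 and Ccl5, attractants of T cells, fell too, Cxcl10 lying at 55.8, 12.8 and 8.27 CPM in adults against 0, 1.92, 2.77, 0 and 1.48 in newborns (adjusted p = 0.00648; -3.25 and not called without adult replicate 1) and Ccl5 at 13.1, 7.86 and 6.49 against 0, 2.56, 0, 0 and 0 CPM (adjusted p = 0.00260; log2 difference -5.33, -9.39 without newborn replicate 2). Genes of interleukin 1 and the inflammasome fell for 5 of 13 (3 without adult replicate 1), with Casp4, the inflammatory caspase 11, at 65.1, 23.6 and 16.2 CPM in adults and 12.96, 3.84, 6.46, 13.5 and 5.58 in newborns (log2 difference -1.99 ± 0.43, adjusted p = 0.00164; -1.23 without adult replicate 1). In that list 1 gene rose, Pycard, named after its values were seen, which encodes the inflammasome adaptor ASC and was at 27.9, 34.3 and 44.3 CPM in adults and 46.8, 91.4, 59.1, 51.7 and 58.9 in newborns (log2 difference 0.78 ± 0.25, adjusted p = 0.0268). Every newborn library lay above every adult one, and the call was lost without adult replicate 1 (0.62) or 3 (0.80) or newborn replicate 2 (0.55) or 3 (0.74).

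AP-1 and early response genes fell for 18 of 25 and rose for 0 (median -1.61), against 14.3% and 15.9% of all tested genes. Without adult replicate 1, 13 fell and 1 rose, and 11 fell in the fit on the M-MDSC libraries alone. Dusp2, a phosphatase of ERK and p38, was at 354, 200.3 and 343 CPM in adults and 51.4, 60.1, 37.9, 69.3 and 35.4 in newborns (log2 difference -2.56 ± 0.22, adjusted p = 1.34e-07). Klf2, a factor of quiescent leukocytes, was at 450.5, 439 and 567 CPM in adults and 126, 163, 101, 155 and 87.1 in newborns (log2 difference -1.95 ± 0.20, adjusted p = 1.17e-06), and Ier5 fell by 2.17 (adjusted p = 5.92e-06). Egr3, an early growth response factor, was at 10.4, 10.3 and 8.78 CPM in adults and 1.39, 2.56, 1.38, 2.48 and 0.923 in newborns (log2 difference -2.49 ± 0.36, adjusted p = 4.75e-05). For these 4 genes adult replicate 1 did not stand out from the other adults. The list as a whole was highest there, with a sum of 16821 CPM against 9730 and 12310 in adult replicates 3 and 28. MAP kinase phosphatases, fast negative regulators of signalling, fell for 6 of 10, and Dusp1 was at 1458, 1187 and 1489 CPM in adults and 549, 437, 320.4, 676 and 277 in newborns (log2 difference -1.61 ± 0.27, adjusted p = 1.66e-04). Glucocorticoid-responsive genes fell for 10 of 16 and rose for 0. Tsc22d3, which encodes the glucocorticoid-induced protein GILZ, was at 250.4, 351 and 534 CPM in adults and 87.9, 93.3, 83.6, 121 and 62.9 in newborns (log2 difference -2.07 ± 0.21, adjusted p = 7.54e-07), and Ddit4, an inhibitor of mTORC1 signalling, at 47.6, 101 and 165 CPM in adults and 8.79, 12.8, 4.62, 2.38 and 3.21 in newborns (log2 difference -4.31 ± 0.48, adjusted p = 2.48e-06). Both were highest in adult replicate 28 and lowest among adults in replicate 1. Klf9 and Zbtb16, factors induced by glucocorticoids, fell by 3.09 (adjusted p = 7.77e-05) and 2.06 (adjusted p = 6.57e-05). Hspa1a and Hspa1b, near-identical genes of inducible HSP70 that share reads, fell by 4.31 and 3.89, with adult replicate 1 the highest library for both. Ahsa1, an activator of HSP90, rose by 1.30 (adjusted p = 1.24e-04) and Hsph1, the HSP110 chaperone, fell by 1.22 (adjusted p = 9.52e-04). Of 17 heat shock chaperones 2 rose and 6 fell, against 15.9% and 14.3% of all tested genes.

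No gene of the suppression list was called higher in newborns. Of 19 tested genes tied to suppression by MDSC, 0 rose and 8 fell (median -0.92), against 15.9% and 14.3% of all tested genes. Without adult replicate 1 there were 3 lower and 2 higher. Arg1, an arginase, and Nos2, which makes nitric oxide, are used to mark these cells in tumors and had 0 counts in all 8 libraries, which allows up to 0.138 CPM over the adult and 0.0575 CPM over the newborn group. Il10, an inhibitory cytokine, was at 21.3, 0.828 and 0 CPM in adults and had 0 counts in newborns. Its call (adjusted p = 0.00572) was lost without adult replicate 1. Arg2, the mitochondrial arginase, was at 25.1, 2.07 and 0 CPM in adults and 0.463, 1.92, 0, 0.0467 and 0 in newborns, and Cd274, the checkpoint ligand PD-L1, at 161, 36.0 and 6.54 CPM in adults and 8.79, 1.92, 8.31, 21.8 and 11.4 in newborns. Their log2 differences of -5.50 (adjusted p = 0.00907) and -2.59 (adjusted p = 0.0181) became -1.50 and -0.90 without adult replicate 1, and neither was then called. Tgfb1, transforming growth factor beta, was at 502, 562 and 644 CPM in adults and 400.4, 684, 357, 277 and 358 in newborns and was not called (log2 difference -0.47 ± 0.20, adjusted p = 0.0835). It was called lower without adult replicate 1 (-0.62) or newborn replicate 2 (-0.73). Il4ra and Stat3, a receptor chain and a factor tied to suppressive programs, fell: Il4ra was at 386, 432 and 307 CPM in adults and 153, 229.5, 161, 171 and 152 in newborns (log2 difference -1.10 ± 0.14, adjusted p = 1.30e-05), and Stat3 at 425, 422 and 461 and 303, 297, 339.8, 292 and 301 (log2 difference -0.51 ± 0.13, adjusted p = 0.00792).

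Genes for superoxide and lipid mediators were higher or not called, with few lower. Cybb, the catalytic subunit of the NADPH oxidase, was at 1661, 1268 and 1074 CPM in adults and 1347, 721, 1342, 1443 and 1631 in newborns, and the groups overlapped (log2 difference -0.06 ± 0.19, adjusted p = 0.846). Its cytosolic regulators Ncf1 and Ncf4 rose by 1.10 (adjusted p = 1.14e-04) and 0.93 (adjusted p = 6.26e-04), with Ncf1 at 277, 319 and 383 CPM in adults and 567.95, 953, 796, 576 and 633 in newborns. Of 7 oxidase genes 4 rose, and 2 without adult replicate 1 or 3 or newborn replicate 2 or 3. Among enzymes of eicosanoids, Lta4h, which makes leukotriene B4, was at 57.4, 67.9 and 98.7 CPM in adults and 320.3, 538, 622, 308 and 304 in newborns (log2 difference 2.47 ± 0.27, adjusted p = 1.57e-06), and Ptgs1, the constitutive cyclooxygenase, at 25.1, 15.7 and 22.9 CPM in adults and 115, 154, 179, 98.5 and 128 in newborns (log2 difference 2.66 ± 0.30, adjusted p = 2.80e-06). Alox5 and Alox15, lipoxygenases of leukotriene and hydroxy acid synthesis, rose by 2.25 and 4.46. Ptgs2, the inducible cyclooxygenase, was at 106, 16.1 and 13.8 CPM in adults and 26.4, 2.56, 10.6, 27.2 and 11.2 in newborns and was not called (log2 difference -1.35 ± 0.60, adjusted p = 0.0967). It was called lower without adult replicate 3 (-1.73), adult replicate 28 (-1.94) or newborn replicate 77 (-1.69), and was at 0.12 without adult replicate 1. Ptges, the terminal synthase of prostaglandin E2, was at 13.1, 3.72 and 0 CPM in adults and 12.96, 12.1, 16.6, 12.3 and 8.67 in newborns (log2 difference 1.61 ± 0.86, adjusted p = 0.175) and was called higher without adult replicate 1 (3.71). In the eicosanoid list 7 of 17 rose and 1 fell, against 15.9% and 14.3% of all tested genes.

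Receptors moved in both directions, beside 15.9% of all tested genes higher and 14.3% lower. Ccr1, a receptor for inflammatory CC chemokines, was at 40.5, 13.7 and 12.9 CPM in adults and 112, 75.4, 92.8, 146 and 149 in newborns (log2 difference 2.41 ± 0.36, adjusted p = 6.83e-05). Ccr7, which guides cells to lymph nodes, was at 114, 92.7 and 68.4 CPM in adults and 3.70, 1.92, 2.77, 4.53 and 1.89 in newborns (log2 difference -4.92 ± 0.37, adjusted p = 3.16e-08); T cells, B cells and dendritic cells express it too. Ccr6 and Cxcr5, receptors of B cells among others, were at log2 differences of -4.79 and -4.08, beside a median of -3.93 over the B cell markers. Of 14 chemokine receptors 2 rose and 6 fell. Il10ra, the interleukin 10 receptor chain, was at 835, 678 and 875 CPM in adults and 303, 268, 214, 279 and 198 in newborns (log2 difference -1.66 ± 0.16, adjusted p = 5.20e-07), and Tgfbr2, a receptor for transforming growth factor beta, at 144, 234 and 315 CPM in adults and 76.8, 67.8, 67.4, 76.4 and 46.3 in newborns (log2 difference -1.79 ± 0.20, adjusted p = 1.96e-06). Toll-like receptors and adaptors fell for 7 of 20 and rose for 0 (4 fell without adult replicate 1), with log2 differences of -2.30 for Tlr1, -2.82 for Tlr7, -1.32 for Tlr9 and -2.33 for Tlr5, whose call was lost without adult replicate 1 (-2.21) or 28 (-2.17). Of 15 complement genes, C3, the central component, was at 1187, 1057 and 1113 CPM in adults and 2485, 3300.4, 3113, 1664 and 2296 in newborns and rose by 1.196 (adjusted p = 7.35e-05), while C1qb, of the initiating complex, fell by 2.88 and Cd55, a membrane inhibitor, by 4.77. C5ar2, a receptor for C5a, was at 11.5, 3.31 and 14.6 CPM in adults and 28.2, 28.1, 42.9, 54.5 and 28.2 in newborns (log2 difference 1.84 ± 0.36, adjusted p = 8.41e-04). C1qb also belongs to the splenic macrophage markers, which were lower in newborns. Mrc1, the mannose receptor of macrophages, was at 24.1, 44.3 and 66.1 CPM in adults and 5.09, 3.20, 7.39, 6.404 and 8.15 in newborns (log2 difference -2.87 ± 0.37, adjusted p = 1.40e-05), and C-type lectins rose for 3 and fell for 9 of 16 (5 fell without adult replicate 28), with Clec12a, an inhibitory receptor of myeloid cells, higher by 0.85 and Clec4a1 and Clec4a3, of the Dcir family, at -1.09 and -1.26. Of 9 Fc receptor genes 1 rose and 4 fell: Fcgr1, the high-affinity receptor of monocytes, was at 94.6, 84.8 and 103 CPM in adults and 33.8, 55.6, 59.6, 16.8 and 61.7 in newborns (log2 difference -1.06 ± 0.39, adjusted p = 0.0460; the call was lost in 6 of the 8 fits that left out 1 M-MDSC library, at -1.15 to -0.83), and Fcgr2b, the inhibitory one, at 189, 256 and 219 and 138, 154, 154, 68.5 and 110.2 CPM (log2 difference -0.84 ± 0.20, adjusted p = 0.00408). Fcer2a and Fcrla, of B cells, fell by 5.22 and 4.12, beside the B cell markers.

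Glycolysis genes rose for 11 of 21 and fell for 2, with a median of 0.68. Pkm, pyruvate kinase, was at 946, 681 and 939 CPM in adults and 1597, 2311, 1659, 1538 and 1789 in newborns (log2 difference 1.06 ± 0.17, adjusted p = 1.21e-04). Tpi1 and Ldha, of the same pathway, rose by 1.39 and 0.80, and Slc2a3, a glucose transporter, by 1.02 (adjusted p = 1.39e-04). Every newborn library lay above every adult one for Pkm, Tpi1 and Ldha. Subunits of oxidative phosphorylation rose for 15 of 37 and fell for 0 (median 0.57), and in the fit on the M-MDSC libraries alone for 3. Atp5a1, Atp5b and Atp5o, of the ATP synthase, rose by 0.87, 1.09 and 1.57. Cox7a2, of cytochrome c oxidase, was at 15.9, 25.2 and 16.8 CPM in adults and 51.4, 67.1, 73.4, 50.4 and 70.2 in newborns (log2 difference 1.70 ± 0.20, adjusted p = 5.92e-06). Scd1, the desaturase that makes oleate, was at 163, 273 and 259 CPM in adults and 19.4, 18.5, 12.5, 6.36 and 7.02 in newborns, a 20.1-fold lower level in newborns (log2 difference -4.33 ± 0.34, adjusted p = 4.99e-08), with no overlap. Its paralog Scd2 rose by 0.92, Acly, which supplies acetyl-CoA, rose by 0.67, and Srebf2, the factor of cholesterol synthesis, fell by 0.92. Cholesterol and fatty acid genes as a list rose for 2 and fell for 5 of 26 (3 fell without adult replicate 1), against 15.9% and 14.3% of all tested genes. Annexins rose for 5 of 8 (3 without adult replicate 3 or newborn replicate 3), with Anxa3 and Anxa11 higher by 1.72 and 1.11 and Anxa1, a mediator of resolving inflammation, at 318, 204 and 232 CPM in adults and 506, 446, 762, 573 and 718 in newborns (log2 difference 1.24 ± 0.19, adjusted p = 7.34e-05). The remaining lists stood beside 15.9% of all tested genes higher and 14.3% lower. Integrins and selectins rose for 2 and fell for 8 of 21, and cytokine receptors for 1 and 7 of 23. Genes of the endoplasmic reticulum rose for 4 and fell for 5 of 24 (2 rose without adult replicate 3 or newborn replicate 3, and 2 fell without adult replicate 1). Iron genes rose for 3 and fell for 4 of 16, and 2 fell without adult replicate 1 or 3 or newborn replicate 1 or 3, and 1 without newborn replicate 77 or 79. Lysosomal proteases rose for 4 and fell for 2 of 20 (4 fell without newborn replicate 2). Among them, Ctss and Lgmn, proteases of antigen processing, fell by 1.11 (adjusted p = 8.43e-05) and 1.88 (adjusted p = 9.27e-06), and Gusb, a lysosomal hydrolase, and Lamp1, a lysosomal membrane protein, rose by 1.32 and 0.70. Itga4, Itga5 and Itgax, integrin alpha chains, fell by 1.04, 1.30 and 2.93 (Itga5 not without adult replicate 1, at -0.69), and Ppp1r15a and Atf6, of the unfolded protein response, by 2.24 and 0.83, while the folding enzymes P4hb and Pdia6 rose by 0.93 and 0.75 (Pdia6 not without adult replicate 3, at 0.65, or newborn replicate 3, at 0.60). Slc11a2, an iron importer, fell by 1.76 (adjusted p = 3.34e-05). Ncoa4, the receptor that brings ferritin to degradation, was at 3.83, 71.2 and 1.44 CPM in adults and 130.1, 102, 151, 153 and 137 in newborns (log2 difference 2.55 ± 0.75, adjusted p = 0.0148). Adult replicate 3 stood well above the other adults for Ncoa4, and still below every newborn, and the log2 difference was 6.16 without it and 2.01, no longer called, without adult replicate 1.

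The largest changes chosen by size held Ttc21a, of ciliary transport, which had 0 counts in adults and 10.6, 33.9, 26.3, 8.18 and 15.9 CPM in newborns, at least 97.3-fold higher, beside the granule, stefin, histone and division genes given above. The largest falls held genes of lymphocytes and of macrophages. Cd72, a B cell coreceptor, was at 14.2, 45.9 and 30.4 CPM in adults and 0.926, 0, 1.38, 0 and 0 in newborns (log2 difference -7.72 ± 0.84, adjusted p = 1.83e-06), and Cd2, of T cells and NK cells, at 20.2, 43.4 and 11.8 CPM in adults and 1.85, 0.639, 0.462, 0 and 0 in newborns (log2 difference -6.95 ± 0.78, adjusted p = 2.53e-06). Txk, a T cell kinase, had 2 counts in newborns and was at 10.9, 15.7 and 4.59 CPM in adults, a ratio of 166 (95% interval 45.2 to 1386). These 3 moved together with the B cell and T cell markers. Cd5l, a secreted protein of tissue macrophages, was at 11.5, 21.1 and 45.9 CPM in adults and 2.31, 0.639, 1.85, 0 and 0.401 in newborns (log2 difference -5.74 ± 0.78, adjusted p = 2.26e-05), with adult replicate 28 the highest. Myof, myoferlin, a protein of membrane repair, was at 88.0, 95.6 and 89.4 CPM in adults, within a narrow range, and 7.87, 2.56, 1.38, 0 and 1.204 in newborns (log2 difference -5.65 ± 0.73, adjusted p = 1.17e-05). Faah, which degrades the endocannabinoid anandamide, had 3 counts in newborns, a ratio of adult to newborn level of 349 (95% interval 118 to 1697); the intervals cover counting error only. Spon1, a secreted matrix protein, had 1 count in newborns and was at 50.3, 10.3 and 12.2 CPM in adults, a ratio of 793 (95% interval 141 to 31402). Tnfsf9, the ligand of the costimulatory receptor 4-1BB, was at 132, 2.90 and 7.81 CPM in adults and 1.85, 0.639, 0, 0 and 1.12 in newborns (log2 difference -5.57 ± 1.11, adjusted p = 8.87e-04), and Egr2, an early response factor, at 65.1, 4.14 and 8.09 and 2.78, 0.639, 0, 0 and 0.161 CPM (log2 difference -5.79 ± 1.06, adjusted p = 4.14e-04). Adult replicate 1 was far above all other libraries for both, and without it Tnfsf9 was at -3.02 and not called, and Egr2 at -4.24 and called.

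The age difference was set against that in PMN-MDSC, which was measured in other libraries. Whether M-MDSC and PMN-MDSC libraries came from the same mice was not tested. Adult PMN-MDSC libraries held 4707 to 7455 CPM of the B cell markers, against 667 to 1035 in newborn ones. Their neutrophil markers summed to 10425 to 11118 CPM, against 101470 to 113860 in newborn PMN-MDSC, and their sort markers to 580 to 682 against 3817 to 4691. The part of these contents in the differences between cell types was not tested. In PMN-MDSC 47.7% of the genes tested were called for age, against 30.2% in M-MDSC, over 11 and 8 libraries, where the 11 may hold fewer distinct samples, as given above. The difference between the age differences was itself called for 2347 genes (18.1%), 856 (6.61%) with a higher and 1491 (11.5%) with a lower value in M-MDSC. Without the PMN-MDSC libraries of batch 1, 967 were called, 215 of 15926 genes (1.35%) with a higher and 752 (4.72%) with a lower value in M-MDSC. Cybb was at -0.06 in M-MDSC and 2.94 ± 0.17 (SE) in PMN-MDSC, a difference of -2.999 ± 0.25 (SE; adjusted p = 3.32e-07). Itgam had 0.15 and 2.70 ± 0.13, a difference of -2.55 ± 0.19 (SE; adjusted p = 8.65e-08), and Anxa1 1.24 and 3.66 ± 0.16, a difference of -2.42 ± 0.23 (SE; adjusted p = 1.56e-06). Replication genes went the other way: Mcm3 rose by 2.92 in M-MDSC and by 0.85 ± 0.14 in PMN-MDSC, a difference of 2.07 ± 0.23 (SE; adjusted p = 7.20e-06). In the list of DNA replication and S phase, 14 of 34 genes had a larger rise in M-MDSC and 0 a smaller one, while of the 19 secondary granule genes 9 had a smaller rise and 0 a larger one. Without the batch 1 PMN-MDSC libraries these counts were 11 of 34 and 4 of 19. Antiviral interferon genes fell in both cell types, 36 of 37 in M-MDSC and 34 in PMN-MDSC, where 20.5% of all tested genes were lower, and the difference was called higher for 2 and lower for 4. Mpo rose by 5.06 in M-MDSC and 4.57 ± 0.41 in PMN-MDSC, a difference of 0.49 ± 0.56 (SE; adjusted p = 0.609).

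**Figure D5:**
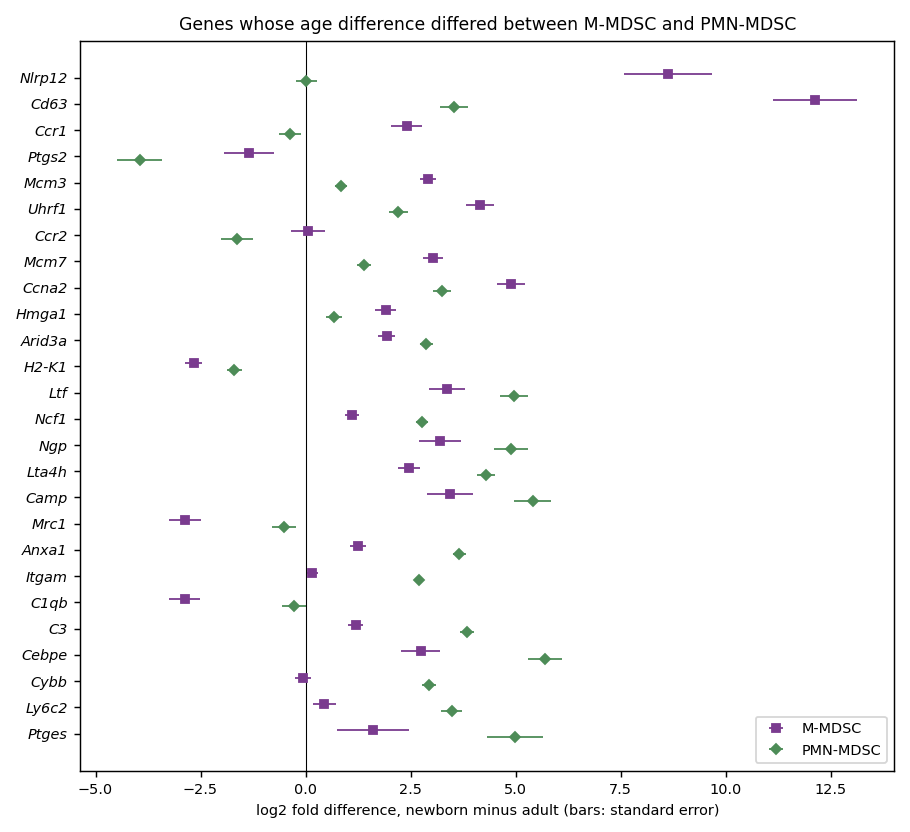
Log2 difference, newborn minus adult, with its standard error (bars), in M-MDSC (purple squares) and PMN-MDSC (green diamonds). Drawn are the 26 genes, of 34 named genes examined, whose difference between the cell types was called, ordered by that difference. Cybb and Itgam are near 0 in M-MDSC and at 2.94 and 2.70 in PMN-MDSC, and Mcm3 is at 2.92 and 0.85; Cd63 and Nlrp12 had 0 counts in adult M-MDSC, so their M-MDSC values depend on the prior count.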

How the data were processed

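RNA-seq was made from spleen cells with a total RNA kit and read as 50 base single ends, per the labels' protocols. M-MDSC were sorted, while PMN-MDSC were sorted or isolated with Ly6G beads. Estimated counts for every gene and all 19 libraries stand in the 1 table that the authors deposited, with no scaling; the submitters' processing notes name RSEM 1.2.3, DESeq2 and mm10 with no role, while the aligner, the annotation and the strand setting were not given in the sources used here. Without strand, a gene and its antisense partner cannot be told apart. The table held 38887 genes, and rounding to whole counts changed 0 values. Of its gene IDs, 37570 (96.6%) were found in GENCODE M21 (GRCm38), the source of the positions; promoter sequences came from RefSeq on GRCm38.p6.

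Genes with enough counts by filterByExpr (12943) were fitted with edgeR 4.0.16 in R 4.3.3, by the quasi-likelihood test with TMM scaling, 1 coefficient per group and batch as a covariate over all 19 libraries (14 residual degrees of freedom). Age was tested in M-MDSC, in PMN-MDSC and as the difference of both, with Benjamini-Hochberg adjustment over all 12943 genes. limma 3.58.1 and DESeq2 1.42.0 served as alternatives, beside scaling, filters, batches and left-out libraries. Floors are 3 counts over a group, and a bound on a fold sets the pooled level of the other group against it. Intervals for genes with 1 to 3 counts are exact, at 95%, and cover counting error only. The fit was tested on simulated data for this comparison with 12558 genes: it called 18.0% of genes set 2-fold higher, 12.0% set 2-fold lower, 66.0% set 4-fold higher, 53.1% set 4-fold lower and 4 of 12359 unchanged genes. The simulated libraries were all independent, with no batch effect and no age difference in PMN-MDSC. These rates need not hold for the real data, where 30.2% of the genes tested were called in M-MDSC.

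The members and lists were chosen with earlier results of these data known. Genes named were drawn from the 10 largest changes each way with at least 10 CPM and the same sign in both batches, the 5 largest differences each way between the age differences of the cell types, up to 4 called members of each list by smallest adjusted p, and a set of genes of interest. Not every gene picked by these rules was described. Of the largest differences between cell types, Steap4, Vipr1, Reck, Gpd1 and Glis2 were left out. Shared replicate numbers (1 and 3) were checked between adult and newborn M-MDSC only: deviations of same-numbered libraries correlated at 0.07 and -0.00. The deviations of the 2 adult libraries of batch 1 mirror each other, so this check can decide little. The numbers were not used as pairs. Whether M-MDSC and PMN-MDSC libraries of the same age and number came from the same mice was not tested. The table holds no mitochondrially encoded genes.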

Additional observations from a re-analysis of the deposited data

Results flagged for a closer look

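The difference between the age differences, M-MDSC minus PMN-MDSC, was tested for 34 of the named genes and called for 26, by edgeR's quasi-likelihood test at an adjusted p under 0.05, against 18.1% of all 12943 genes. Some of the 34, such as Nlrp12 and Cd63, were named for a large difference, so the count is not independent. The 34 are a part of the named genes: Mastl, Cenpu and Txk also had called differences, among the largest, but were not included. Secondary granule genes rose less in M-MDSC: the difference was -1.59 on the log2 scale for Ltf, -1.97 for Camp, -1.69 for Ngp and -2.96 for their factor Cebpe. Lower values in M-MDSC were also called for other genes, -2.999 for Cybb, -1.67 for Ncf1, -2.55 for Itgam, -3.04 for Ly6c2, -2.65 for C3, -1.82 for Lta4h, -2.42 for Anxa1 and -3.37 for Ptges. The same held for Arid3a (-0.95), Mrc1 (-2.35), C1qb (-2.61) and H2-K1 (-0.97). Genes of DNA replication had higher values in M-MDSC, 2.07 for Mcm3, 1.63 for Mcm7 and 1.94 for Uhrf1, in a list with 14 of 34 higher, while mitosis genes had 3 of 40 and histones 2 of 26, near the 6.61% of all genes. Higher values were also called for Ccna2 (1.63) and the chromatin gene Hmga1 (1.22). Chemokine receptors and Ptgs2 were higher as well, 2.77 for Ccr1, 1.68 for Ccr2 and 2.60 for Ptgs2. Cd63 (8.59) and Nlrp12 (8.61) had 0 counts in adult M-MDSC, so their values depend on the prior count. Without the batch 1 PMN-MDSC libraries 17 of the 26 were still called, and Ltf, Camp, Ngp, Ccna2, Ccr2, H2-K1, Hmga1, Ptges and Ptgs2 were not. Under every alternative but a 2-fold minimum, 10 stayed called: Cybb, Ly6c2, Itgam, Ncf1, C3, Mcm3, Uhrf1, Lta4h, Anxa1 and Ccr1. None of these alternatives adjusts for the age difference in B cell and neutrophil markers of PMN-MDSC given above.

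Within the 5 newborn libraries, 1 library lay apart from the others for 15 of 188 genes examined. For normally spread values chance gives about 1 in 20, which need not hold for CPM with many zeros. Newborn replicate 2 was high for Hmga1 (445 CPM), Il4ra (229.5), Arg2 (1.92), Ncf4 (469), Ccl5 (2.56), Pycard (91.4) and Hist1h2bg (1441). Newborn replicate 1 was high for Egr2 (2.78 CPM), Faah (1.39) and Ccr3 (1.85), newborn replicate 3 for Stat3 (339.8) and Txk (0.923), newborn replicate 77 for Hspa1b (22.8) and Klf9 (25.1), and newborn replicate 79 for Oasl2 (18.02). The flagged values of Txk, Faah, Arg2, Ccl5 and Ccr3 rested on 2 to 4 counts in shallow batch 1 libraries.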

How the results depend on the processing

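The counts of called genes, 2053 higher and 1856 lower, moved with the error model. They were 665 and 602 in the M-MDSC libraries alone, where fewer samples are fitted, 1186 and 1129 with limma-voom, where the cause was not tested, and 620 and 655 with a 2-fold minimum, a stricter rule. Without the batch 1 PMN-MDSC libraries they were 1440 and 1386. Leaving out each library gave 1678 to 2253 higher and 1629 to 2211 lower. The share of calls that were higher was 52.5%, and 45.7% to 46.9% with DESeq2 size factors, upper-quartile scaling and the DESeq2 test, which moved the median of all genes by -0.09 to -0.07. Scaling without haemoglobin and immunoglobulin genes gave 52.2% and a shift of -0.00389. The 2347 called differences between cell types became 1006 in batch 1, 4475 in batch 2, 380 with a 2-fold minimum and 967 without the batch 1 PMN-MDSC libraries, and 2021 to 2905 with 1 library left out. With the replicate number as a block, 1989 were higher, 1701 lower and 2360 differed between cell types. Whether the numbers pair the samples is not known. Without adult replicate 28 and newborn replicate 77, a choice made after seeing the data, 2520 were higher and 2668 lower.

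Among 4518 values of named genes under the alternatives, 4294 kept direction and call, 178 lost the call, 20 gained it and 26 changed sign. Most changes of sign were of genes not called. Ccr2 was at -0.042 in M-MDSC libraries alone, -0.64 in batch 1, -0.028 with DESeq2's factors and -0.030 with its test, -0.29 with limma-voom, -0.41 to 0.28 with 1 library left out, -0.040 without the batch 1 PMN-MDSC libraries, and -0.45 without adult replicate 28 and newborn replicate 77. Csf3r was at 0.13 in batch 1, 0.11 with limma-voom, -0.18 to 0.086 with 1 library left out and 0.11 without adult replicate 28 and newborn replicate 77. Cybb was at 0.52 in batch 2, 0.019 with the replicate block and -0.26 to 0.12 with 1 library left out, Itgam at -0.0056 in batch 2 and -0.0016 to 0.23 with 1 library left out, and Ptgs2 at 0.48 in batch 2 and -1.94 to 0.12 with 1 library left out. In batch 2 Il5ra was at 1.57, the called genes Arg2 and Cd274 at 1.68 and 1.34, and Il10 at 0, where adult replicate 28 had 0 counts of Il10. Of 1156 values of differences between cell types, 1040 kept direction and call, and 1 changed sign, Ptges, at 5.29 in batch 2. The cause of these changes was not tested. In the shallow libraries of batch 1, 3 counts stand for 1.24 to 1.92 CPM, against 0.120 to 0.172 in batch 2, so genes under those levels were not detectable in single libraries of batch 1.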
